A study of Fukomys damarensis and Heterocephalus glaber and Cavia porcellus with 28 samples.

Results

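The genes described here buffer cellular ATP through creatine and adenine nucleotides. They are the creatine kinases Ckm, Ckb and Ckmt2, the creatine transporter Slc6a8, the creatine synthesis enzymes Gatm and Gamt, the adenylate kinase Ak1 and the AMP deaminases Ampd1, Ampd2 and Ampd3. Members were chosen by name, as rows whose mouse Ensembl identifier maps to these symbols. All 10 were present among the 13928 rows of both the heart and the liver table.

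Creatine kinases move a phosphate group between ATP and creatine, and phosphocreatine restores ATP where it is used. Ckm is the cytosolic muscle form, Ckb the cytosolic form best known from brain, and Ckmt2 the mitochondrial form of heart and skeletal muscle. Creatine is made by a first enzyme, Gatm, which forms guanidinoacetate, and a second, Gamt, which methylates it; muscle largely takes creatine up through Slc6a8. Ak1 converts a pair of ADP molecules to ATP and AMP, and AMP deaminases remove the AMP as IMP. Ampd1 is known as the skeletal muscle form, Ampd2 as a widely expressed form with high levels in liver, and Ampd3 as the form first described in red blood cells.

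Total RNA depleted of ribosomal RNA was sequenced from flash-frozen tissue of a pair of African mole-rats, naked and Damaraland, with guinea pig and mouse as outgroups, to compare how expression evolved in mole-rats. The heart groups held 3 (naked), 5 (Damaraland), 3 (guinea pig) and 3 (mouse) animals, and the liver groups 4, 5, 3 and 2 in the same order. The labels name 18 animals, 10 of which gave both tissues, and record no treatment or genetic change. Naked mole-rats were 13 to 17 months old, Damaraland mole-rats 36 to 48, guinea pigs 2.3 and mice 2, so age and species cannot be told apart. The animals were male except for the female of Damaraland liver replicate 4, and 1 Damaraland animal is labelled 48 months in heart and 36 in liver.

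Depth ran from 4089633 recovered reads in naked heart replicate 3, the shallowest library, to 26985779 in another heart; liver libraries held 11220505 to 21467939. Levels are given as the deposited log2-like value, or as scaled reads (recovered reads over the size factor of their library). No correction for gene length was made here, and whether the authors made one is not given in the sources used here. A gene is compared between species, and ratios of reads of different genes carry each gene's length. The part of gene length in the differences between species was not tested. Doubling from 10 reads moves the log2-like value by only 0.269 in heart and 0.375 in liver, against 0.94 and 0.97 from 1000 reads, so differences of rare genes are understated on that scale. The value of 0 reads is 5.3645 in heart and 4.2893 in liver. Tissue labels were checked with marker genes: Tnnt2 ranked 4 to 25 in heart libraries. Albumin ranked from 45 to 141 in naked mole-rat hearts and from 406 to 6421 in the other hearts. In bulk tissue, fewer cells of a type and less RNA per cell cannot be told apart.

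A gene was called different between species at a limma adjusted p under 0.05 and a difference of at least 1. Ampd1 was too rare for the test in both tissues, which left 9 of 10 members. In heart 7 of 9 were called in at least 1 of the 6 species pairs, where 72% of all genes tested were. In liver 8 of 9 were, against a background of 76.4%. Over all pairs, 25 of 54 member-by-pair comparisons were called in heart (background 32.9%) and 19 of 54 in liver (background 37.6%). The median absolute difference over these comparisons was 0.89 for members and 0.67 for all genes in heart, and 0.74 for both in liver.

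When both mole-rats were averaged and set against the averaged outgroups, 4 of 9 members were called in heart, where 23.4% of genes tested were. Ampd2 was higher in mole-rats (10.8% of genes were called higher), and Ckb, Ckmt2 and Slc6a8 were lower (12.6% were called lower). In liver 3 of 9 were called against a background of 28.1%: Ampd3 was higher (15.1% called higher), and Ckb and Gatm were lower (13% called lower). Calls in all 4 contrasts of a mole-rat with an outgroup, with the same sign, numbered 0 of 9 in heart (background 4.68%) and 1 in liver, Ckb (background 6.29%). Liver Ckb passed the filter on low values through the outgroups. With every species mean required to pass it, the liver count was 0 and the calls over the pairs 11. Ampd3 and Ckmt2 in guinea pig livers (means 5.03 and 5.19) and Ak1 in mouse livers (5.26) also lay less than 1 above the value of 0 reads. They dropped out as well, and the average contrast then left 1 call in liver. Fewer members and fewer genes were tested under that filter, so its counts are out of smaller totals than those of the main test. A species was set apart alone where all 3 of its pairs were called with the same sign. In heart this held for Ckm and Slc6a8 in the naked mole-rat (background 9.02%), Ckb in the Damaraland mole-rat (6.76%), and no member in the guinea pig (6.61%) or the mouse (10.4%). In liver it held for Gatm in the naked mole-rat (10.3%) and the guinea pig (9.38%), Slc6a8 in the mouse (12.2%), and no member in the Damaraland mole-rat (8.81%). The median difference over members was -0.08 in heart and 0.18 in liver, beside -0.01 and 0.02 over all genes tested. The map of differences shows that members went different ways, and that the pairs share libraries.

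**Figure D1:**
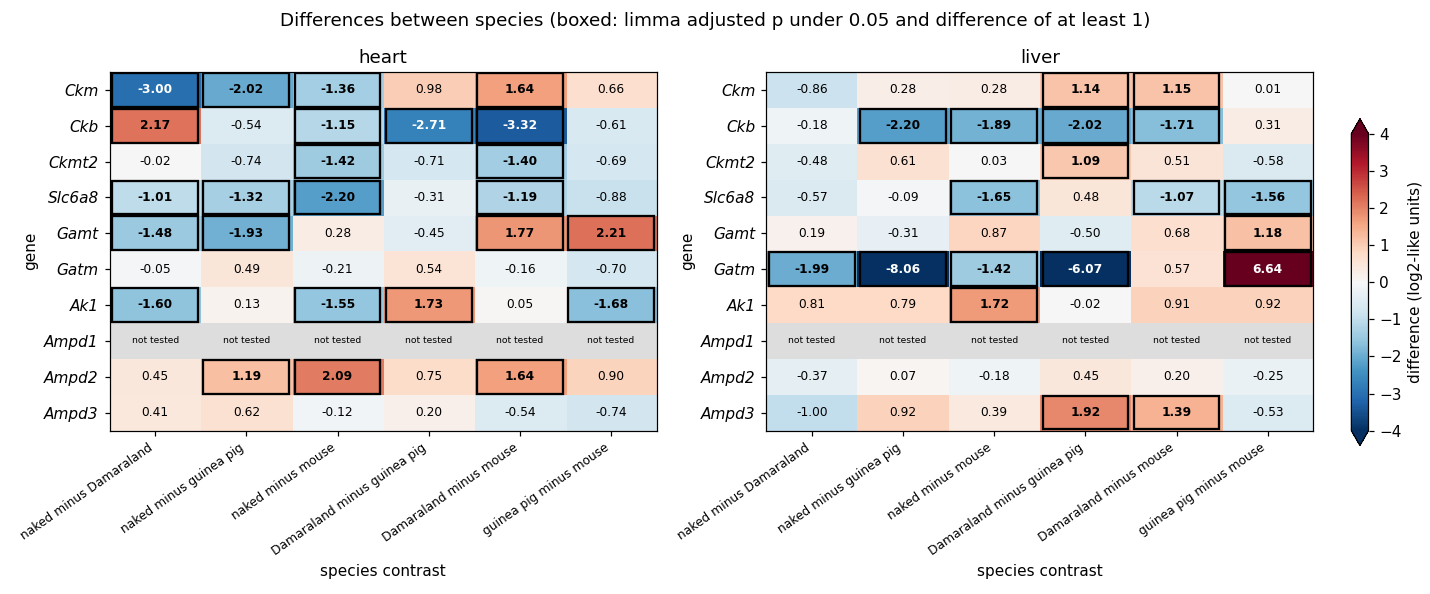
Difference of species means for each of the 10 genes (rows) in the 6 species contrasts (columns), heart on the left and liver on the right, coloured and printed in log2-like units, first species minus second; the colour scale ends at 4 and boxes mark called differences. Boxes fall on 25 of 54 tested cells in heart and 19 of 54 in liver, with the largest values for Gatm in liver; Ampd1 was not tested.

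Ckm (ENSMUSG00000030399), the muscle creatine kinase, separated all 4 species in heart. Naked mole-rat hearts had 21209, 19775 and 15123 scaled reads. Damaraland hearts had 117939 at the lowest, 154383 at the median and 193089 at the highest. Guinea pig hearts lay between 70834 and 78298, and mouse hearts between 45854 and 49692. No species overlapped another, and the order from low to high was naked mole-rat, mouse, guinea pig, Damaraland mole-rat.

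On the log2-like scale the naked mole-rat had 14.04 ± 0.26 (SD, n = 3) for Ckm and the Damaraland mole-rat 17.04 ± 0.27 (SD, n = 5), a difference of -3.00 (SE 0.19; limma adjusted p 1.01e-09). That is an 8.07-fold higher mean of scaled reads in Damaraland hearts. The naked mole-rat was also below the guinea pig (difference -2.02, limma adjusted p 4.49e-07) and the mouse (-1.36, limma adjusted p 2.84e-05), so Ckm was low in that species alone. Damaraland hearts were 1.64 above mouse hearts (limma adjusted p 1.06e-06) and 0.98 above guinea pig hearts (95% interval 0.58 to 1.38, limma adjusted p 0.000281), just under the size threshold; that last difference was called with libraries centred (1.02), quantile normalisation (1.59), sample weights (1.08) or a replicate block (1.07), and without Damaraland replicate 1 (1.02) or 4 (1.06) or guinea pig replicate 1. Because the mole-rats lie at opposite ends, their mean differed from that of the outgroups by -0.19 (95% interval -0.49 to 0.11), and by 0.28 after quantile normalisation.

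Cardiomyocyte markers differed between species too. The summed scaled reads of 7 of 7 listed markers (Tnnt2, Actc1, Myh6, Tnni3, Ryr2, Mybpc3, Mb) were 607403 to 1228200 in naked, 1485629 to 2005666 in Damaraland, 887912 to 1023608 in guinea pig and 1216625 to 1356264 in mouse hearts. Per 100 of these marker reads, Ckm had 1.73 to 2.64 reads in naked, 3.66 to 3.77 in mouse, 7.22 to 8.82 in guinea pig and 6.86 to 10.2 in Damaraland hearts. On this ratio the naked mole-rat remained lowest, and Damaraland and guinea pig hearts overlapped.

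**Figure D2:**
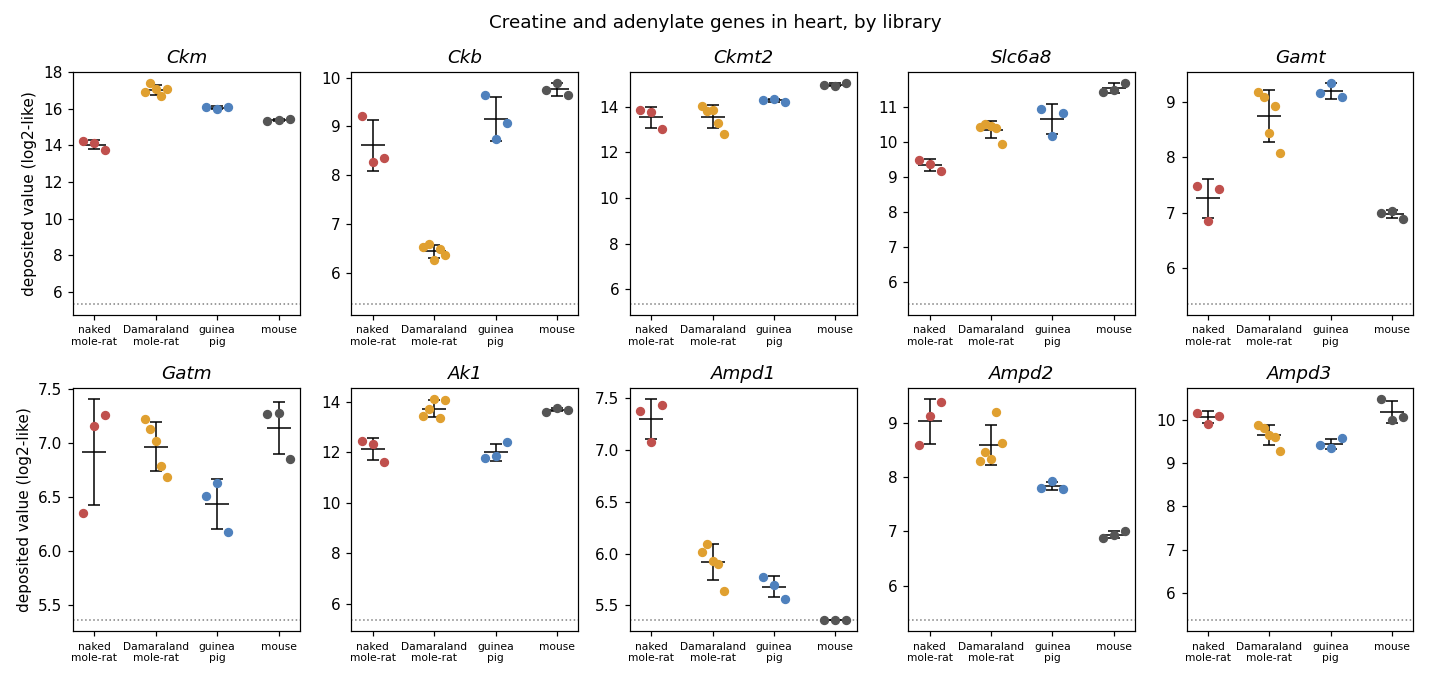
Log2-like value of each of the 10 genes in the 14 heart libraries, 1 panel per gene with its own vertical axis; points are animals, bars the species mean with SD, and the dotted line the value of 0 reads (5.3645). Ckm separates all species, Ckb is low in the 5 Damaraland hearts, and Ampd1 rises clear of 0 reads mainly in the 3 naked mole-rat hearts.

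Ckb (ENSMUSG00000001270), the other cytosolic creatine kinase, was lowest in Damaraland hearts. These had 30.9, 34.2, 18.5, 28.4 and 22.4 scaled reads, from 13 to 35 reads each. Naked mole-rat hearts had 570, 255 and 279 scaled reads, guinea pig hearts 799, 388 and 501, and mouse hearts 854, 963 and 798. Every Damaraland heart was below every other heart, while naked mole-rat and guinea pig hearts overlapped, as did guinea pig and mouse hearts.

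Against the mouse the Damaraland difference in Ckb was -3.32 (SE 0.22; limma adjusted p 1.1e-09), and mean scaled reads were 32.4-fold higher in the mouse. Differences of -2.71 from the guinea pig and, in the other direction, 2.17 for naked minus Damaraland were also called (limma adjusted p 1.65e-08 and 2.38e-07). With the voom test on the recovered reads, which does not compress rare genes, the Damaraland minus mouse difference was -5.03. Naked mole-rat hearts were 1.15 below mouse hearts (limma adjusted p 0.000559; 0.97 below and no longer called without naked replicate 2 or with sample weights), and 0.54 below guinea pig hearts (95% interval of the difference -1.05 to -0.02, limma adjusted p 0.0651).

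Reads of mitochondrially encoded genes were also scarce in Damaraland libraries: 12 such genes took at most 0.0279% of reads in heart, against 5.42 to 26.9% in the other hearts. Summed smooth muscle markers (4 of 4) had 10265 to 16005 scaled reads in Damaraland, 4968 to 5957 in naked, 1901 to 2977 in guinea pig and 2554 to 6397 in mouse hearts. How reads of each species were assigned to the mouse identifier is not given in the sources used here. The part of the assignment, of the mitochondrial share and of cell composition in the Ckb result was not tested.

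The contrast between the cytosolic forms was widest in Damaraland hearts. Reads of Ckm per read of Ckb, which carry each gene's length, had a median of 5644 there (4157 to 8362). Medians were 54.3 in naked mole-rat (37.2 to 77.6), 53.7 in mouse (49.8 to 62.3) and 155 in guinea pig hearts (98 to 182). The Damaraland ratios overlapped no other species, and those of naked mole-rat and mouse overlapped each other.

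**Figure D3:**
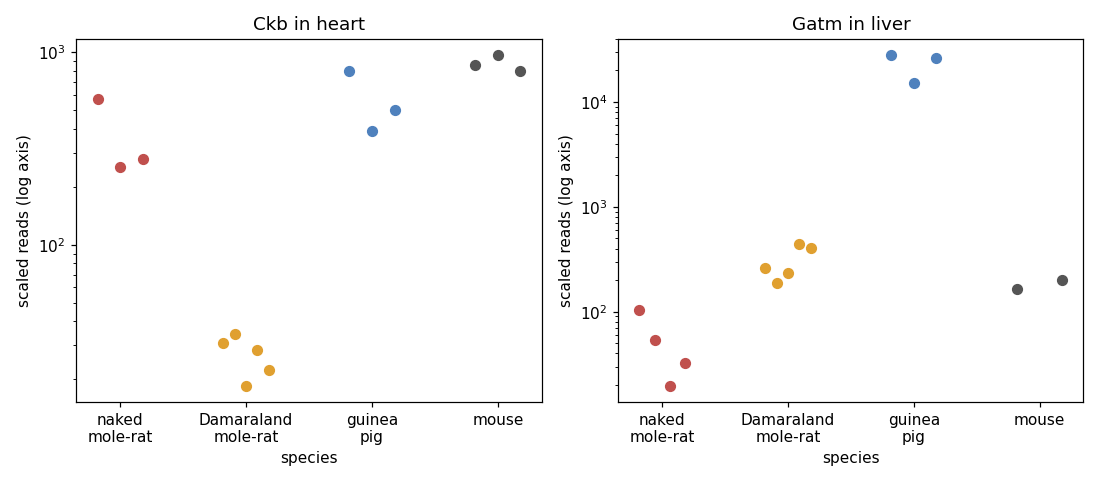
Scaled reads, on a log axis, of Ckb in the 14 heart libraries (left) and of Gatm in the 14 liver libraries (right); each point is 1 animal, grouped by species. Damaraland hearts hold 18.5 to 34.2 scaled reads of Ckb, below all other hearts, and guinea pig livers hold 15232 to 27868 of Gatm, above all other livers.

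Ckmt2 (ENSMUSG00000021622), the mitochondrial form, was lower in both mole-rats than in the mouse heart. Its scaled reads were 16461, 15210 and 9092 in naked mole-rats and 7882 to 18690 in Damaraland mole-rats, with a median of 15929. They were 20870 to 22938 in guinea pigs and 34182 to 37481 in mice. The mole-rats overlapped each other and lay below every guinea pig heart, which lay below every mouse heart.

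Differences from the mouse in Ckmt2 were -1.42 in the naked (SE 0.29; limma adjusted p 0.000349) and -1.40 in the Damaraland mole-rat (SE 0.26; limma adjusted p 0.000135). Those from the guinea pig were -0.74 and -0.71, under the size threshold (95% intervals -1.34 to -0.13 and -1.25 to -0.17). Between the mole-rats the difference was -0.02 with an interval of -0.56 to 0.52. The average contrast was -1.07 (limma adjusted p 0.000113), but it fell under the size threshold without naked replicate 3 (-0.94), without Damaraland replicate 5 (-0.97), and with quantile normalisation (-0.98), sample weights (-0.86) or a replicate block (-0.90). Per 100 cardiomyocyte marker reads, Ckmt2 had 0.411 to 1.26 reads in Damaraland, 1.34 to 2.03 in naked, 2.04 to 2.49 in guinea pig and 2.61 to 2.85 in mouse hearts. Ckm and Ckmt2 differed in pattern, and the ratio of their reads had a median of 10.6 in Damaraland (7.16 to 19.6), 3.54 in guinea pig, 1.30 in naked and 1.33 in mouse hearts.

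In liver, Ckm varied widely within guinea pig and mouse, together with cardiomyocyte markers. Ckm had 172, 195, 115 and 109 scaled reads in naked, 220 to 403 (median 276) in Damaraland, 282, 33.0 and 117 in guinea pig and 194 and 59.5 in mouse livers. The 7 cardiomyocyte markers summed to 931 to 1729 in naked and 1880 to 3865 in Damaraland livers. In guinea pig livers they summed to 3448, 550 and 1614, and in mouse livers to 1533 and 1087, in the order of the Ckm values.

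Damaraland livers were called above guinea pig (difference 1.14, limma adjusted p 0.0139) and mouse livers (1.15, limma adjusted p 0.0287) for Ckm. Without guinea pig replicate 2 the first was 0.57 (limma adjusted p 0.152), and without mouse replicate 2 the second was 0.52 (limma adjusted p 0.438). The second was also lost without Damaraland replicate 1 (limma adjusted p 0.0508) or 2 (0.0549). Per 100 cardiomyocyte marker reads, Ckm had 9.32 to 12.5 reads in Damaraland, 7.33 to 18.5 in naked, 6 to 8.17 in guinea pig and 5.48 to 12.6 in mouse livers. Summed skeletal muscle markers (8 of 8) were 207 to 308 scaled reads in Damaraland livers. They were 61.3 to 171 in naked, 44.4 to 168 in guinea pig and 41.8 to 151 in mouse livers. The part of cardiac or skeletal muscle RNA in the Ckm values was not tested.

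**Figure D4:**
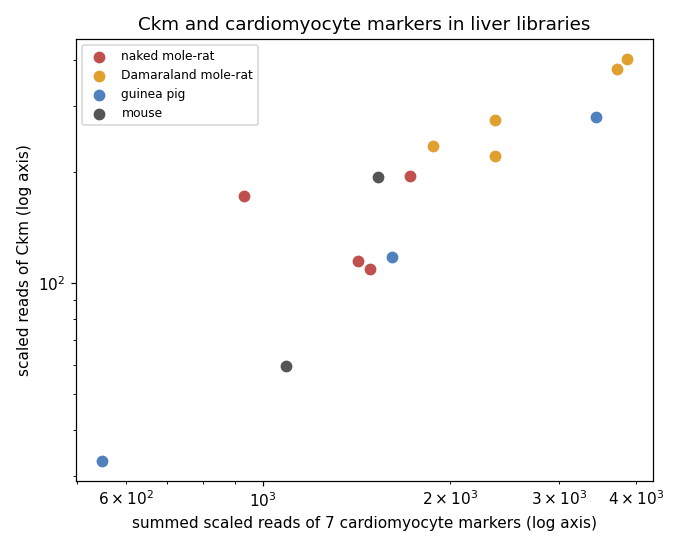
Scaled reads of Ckm against the summed scaled reads of 7 cardiomyocyte markers in the 14 liver libraries, both on log axes; each point is 1 liver, coloured by species. Guinea pig replicates 2 and 1, with 33.0 and 282 scaled reads of Ckm, have 550 and 3448 marker reads, and the 5 Damaraland livers lie toward the upper right.

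Ckmt2 was rare in liver, with 2 to 138 reads per library. Its guinea pig mean of 5.19 was less than 1 above the value of 0 reads, so it passed the filter through the other species. Damaraland livers (23.6 to 141 scaled reads) were called above guinea pig livers (14.0, 1.83 and 14.3), with a difference of 1.09 (limma adjusted p 0.0033). The call was lost without Damaraland replicate 2 (0.82), which held the 141, with quantile normalisation (0.96), or without guinea pig replicate 2 (0.85), the lowest library for this gene and for the cardiomyocyte markers.

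Ckb was nearly absent from mole-rat livers. Naked mole-rat livers had 3, 2, 6 and 0 reads, and Damaraland livers 1 to 10 with a median of 3.97 scaled reads. Guinea pig livers had 146, 109 and 106 reads, and mouse livers 59 and 82. No mole-rat liver reached any outgroup liver, and the mole-rats overlapped.

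The 4 differences of a mole-rat from an outgroup in liver Ckb ran from -1.71 (Damaraland minus mouse, limma adjusted p 4.19e-06) to -2.20 (naked minus guinea pig, limma adjusted p 5.68e-08). The average contrast was -1.95 (SE 0.15; limma adjusted p 5.65e-09) and, with the voom test on recovered reads, -4.69. Mean scaled reads were 32.6-fold higher in guinea pig than in naked mole-rat livers and 14.4-fold higher in mouse than in Damaraland livers. Naked and Damaraland livers differed by -0.18 (95% interval -0.57 to 0.20), and guinea pig and mouse livers by 0.31 (-0.21 to 0.83). At 0 to 10 reads per library the depth could not resolve a difference between the mole-rats. Bile duct markers (3 of 4: Krt7, Krt19, Epcam) had 2371 to 3300 scaled reads in naked, 73.5 to 439 in Damaraland, 926 to 2272 in guinea pig and 29.8 to 52.4 in mouse livers. Their part in the Ckb result, and that of the assignment of reads to the mouse identifier, was not tested.

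Slc6a8 (ENSMUSG00000019558), the creatine transporter, was lowest in naked mole-rat hearts. These had 695, 639 and 541 scaled reads, Damaraland hearts 982 to 1511 with a median of 1428, guinea pig hearts 2084, 1171 and 1924, and mouse hearts 2951, 3046 and 3550. The naked mole-rat lay below every other heart and the mouse above; Damaraland and guinea pig hearts overlapped.

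Naked minus mouse was -2.20 for Slc6a8 (SE 0.21; limma adjusted p 1.15e-07), naked minus guinea pig -1.32 (limma adjusted p 4.35e-05) and Damaraland minus mouse -1.19 (limma adjusted p 3.07e-05). The naked minus Damaraland difference was -1.01 (limma adjusted p 0.000188), at the size threshold, and fell under it in 5 of 14 fits that left out 1 heart: naked replicate 3 (-0.92) and Damaraland replicates 1 to 4 (-0.97 to -0.99). It also did so with quantile normalisation (-0.98) and, barely, with sample weights. The difference of Damaraland from guinea pig hearts was -0.31 (95% interval -0.70 to 0.09). Guinea pig minus mouse was -0.88 (limma adjusted p 0.0016), and was called at -1.03 without guinea pig replicate 1.

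In liver Slc6a8 was highest in the mouse. Mouse livers had 122 and 106 scaled reads, against 18.8, 13.8, 20.7 and 9.69 in naked, 21.0 to 50.7 (median 36.8) in Damaraland and 16.3, 17.4 and 20.3 in guinea pig livers. Both mouse livers were above all others, and all 3 contrasts with the mouse were called. They were -1.65 for naked (limma adjusted p 1.76e-06), -1.56 for guinea pig minus mouse (limma adjusted p 7.88e-06) and -1.07 for Damaraland (limma adjusted p 0.00013). The last fell to -0.98 without the female, Damaraland replicate 4, to just under the size threshold without mouse replicate 1, and to -0.99 with a replicate block.

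Of 5 erythroid markers only Alas2, the heme synthesis enzyme of red cell precursors, was in the table. It had 1727 and 2164 scaled reads in mouse livers and 39.7 to 214 in all other livers. In heart it had 330 to 1485 in mice and 1145 in guinea pig replicate 1, the guinea pig heart with most Slc6a8, against 35.2 to 178 in the remaining hearts. The part of blood cells in the Slc6a8 differences was not tested.

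Gatm (ENSMUSG00000027199), the first enzyme of creatine synthesis, gave the widest difference among the members. Guinea pig livers had 27868, 15232 and 26140 scaled reads. Naked mole-rat livers had 104, 53.7, 19.7 and 32.3, Damaraland livers 186 to 439 with a median of 261, and mouse livers 166 and 201. The guinea pig stood above all other livers and the naked mole-rat below; Damaraland and mouse livers overlapped.

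The mean of scaled reads of Gatm in guinea pig livers was 441-fold that of naked, 75.4-fold that of Damaraland and 125-fold that of mouse livers. On the log2-like scale, guinea pig livers reached 14.30 ± 0.48 (SD, n = 3), and naked mole-rat livers stood at 6.24 ± 0.60 (SD, n = 4); naked minus guinea pig was -8.06 (SE 0.31; limma adjusted p 7.82e-13). Damaraland minus guinea pig was -6.07 (limma adjusted p 1.8e-11) and guinea pig minus mouse 6.64 (limma adjusted p 1.89e-10). Naked livers were also below Damaraland livers by a called difference of -1.99 (limma adjusted p 6.34e-06) and below mouse livers by one of -1.42 (limma adjusted p 0.0022). The average contrast of -3.74 rests on the guinea pig: Damaraland minus mouse was 0.57 (95% interval -0.16 to 1.30).

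Gatm was rare in heart, with 17 to 125 reads per library and none of the 6 pairs called. Damaraland minus guinea pig was 0.54 (limma adjusted p 0.0323) and guinea pig minus mouse -0.70 (limma adjusted p 0.0153), both under the size threshold. The voom test on recovered reads called both, at 1.30 and -1.57. Guinea pig hearts had 30.2, 37.3 and 14.8 scaled reads, below all Damaraland (41.4 to 87.9) and mouse hearts (53.2 to 92.9), and naked mole-rat hearts spread from 22.4 to 90.1. The species with the highest Gatm in liver thus had the lowest mean in heart.

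Gamt (ENSMUSG00000020150), the second enzyme, differed little in liver. Its scaled reads were 3372, 3744, 2298 and 3478 in naked, 2028 to 3564 (median 2687) in Damaraland, 5213, 2540 and 4647 in guinea pig and 1757 and 1685 in mouse livers. Both mouse livers were below all others, and the other species overlapped. Only guinea pig minus mouse was called (1.18, limma adjusted p 0.0023), and it was 0.98 without guinea pig replicate 1. Naked minus mouse was 0.87 (95% interval 0.28 to 1.45; 1.02 and called without naked replicate 3) and Damaraland minus mouse 0.68 (0.11 to 1.24).

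Reads of Gatm per read of Gamt in liver, which carry each gene's length, were 5.35 to 6 in guinea pig, 0.0946 to 0.119 in mouse, 0.0561 to 0.152 in Damaraland and 0.00859 to 0.0307 in naked mole-rat livers. The guinea pig and the naked mole-rat each overlapped no other species. Hepatocyte markers (7 of 7: Alb, Ttr, Fgb, Cps1, Apoa2, Tat, Ahsg) summed to 1116424 to 1882967 scaled reads in guinea pig and 1896368 to 3406058 in naked livers. They summed to 1870777 to 2647070 in Damaraland and 1306194 to 1434740 in mouse livers. The part of cell composition, and of the assignment of reads to the mouse identifier, in the Gatm result was not tested.

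**Figure D5:**
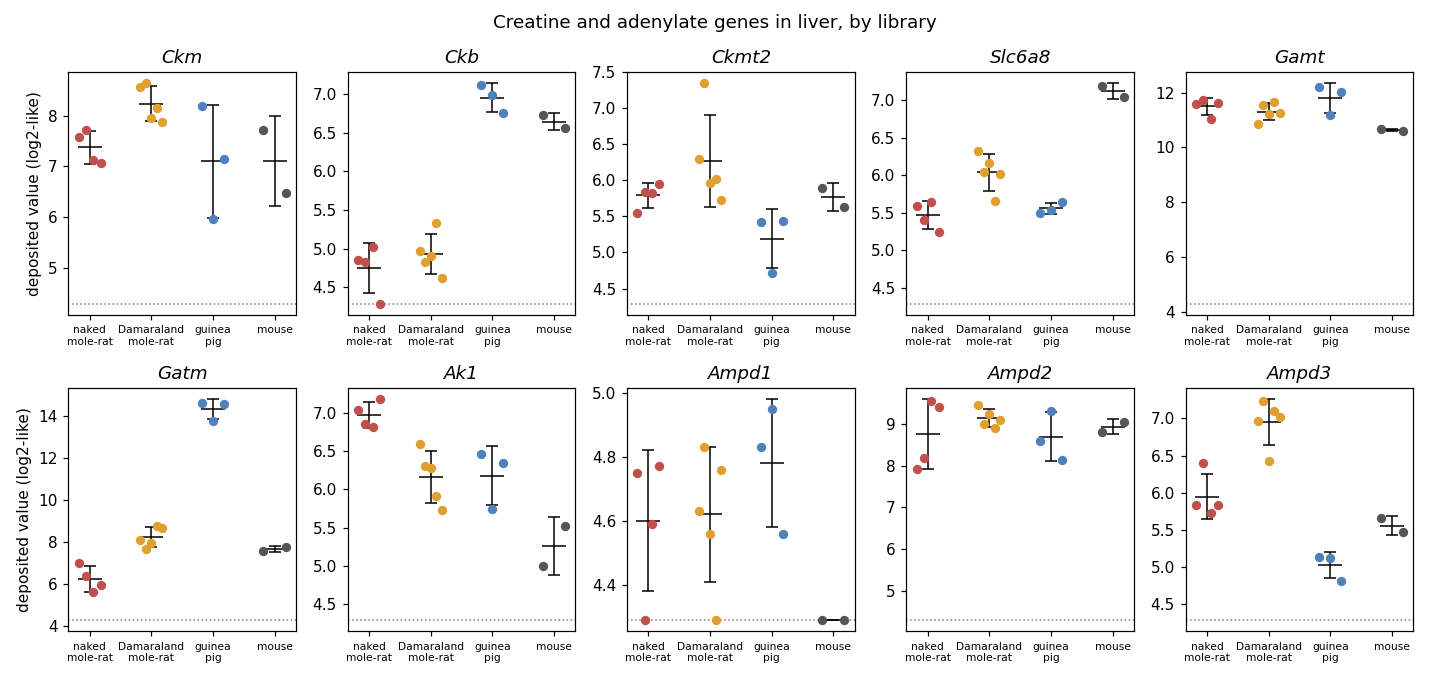
Log2-like value of each of the 10 genes in the 14 liver libraries, 1 panel per gene with its own vertical axis; points are animals, bars the species mean with SD, and the dotted line the value of 0 reads (4.2893). Gatm lies at 13.75 to 14.62 in guinea pig livers and below 9 elsewhere, and Ckb is near the dotted line in all 9 mole-rat livers.

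In heart, Gamt split the species differently. Damaraland hearts had 214 to 552 scaled reads (median 452) and guinea pig hearts 539, 630 and 512, against 119, 53.1 and 111 in naked mole-rat and 65.3, 68.8 and 55.9 in mouse hearts. The higher pair of species overlapped each other, the lower pair overlapped each other, and the pairs were separate. The called differences were -1.48 for naked minus Damaraland (limma adjusted p 2.63e-05), -1.93 for naked minus guinea pig (limma adjusted p 5.43e-06), 1.77 for Damaraland minus mouse (limma adjusted p 3.19e-06) and 2.21 for guinea pig minus mouse (limma adjusted p 1.2e-06). Within the pairs the differences were -0.45 for Damaraland minus guinea pig (95% interval -0.92 to 0.03) and 0.28 for naked minus mouse (-0.25 to 0.81). Hepatocyte markers in heart summed to 12818 to 35799 scaled reads in naked, 2170 to 6145 in Damaraland, 512 to 2410 in guinea pig and 420 to 1468 in mouse hearts, and their part in the Gamt result was not tested.

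Ak1 (ENSMUSG00000026817), the cytosolic adenylate kinase, also formed pairs in heart, with the Damaraland mole-rat beside the mouse. Damaraland hearts had 11485 to 19502 scaled reads (median 14989) and mouse hearts 13854, 15153 and 14552. Naked mole-rat hearts had 6079, 5687 and 3409, and guinea pig hearts 3822, 3977 and 5873. Each pair overlapped within itself and not with the other.

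Called Ak1 differences in heart were -1.60 for naked minus Damaraland (SE 0.23; limma adjusted p 1.36e-05), -1.55 for naked minus mouse (limma adjusted p 5.28e-05), 1.73 for Damaraland minus guinea pig (limma adjusted p 5.34e-06) and -1.68 for guinea pig minus mouse (limma adjusted p 2.89e-05). Naked and guinea pig hearts differed by 0.13 (95% interval -0.41 to 0.67), and Damaraland and mouse hearts by 0.05 (-0.43 to 0.54). Cardiomyocyte markers were likewise highest in Damaraland and mouse hearts, apart from naked replicate 1 with 1228200; the part of cell composition in the Ak1 result was not tested.

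In liver the order of Ak1 was another. Naked mole-rat livers had 106, 89.0, 85.5 and 120 scaled reads, Damaraland livers 23.6 to 68.0, guinea pig livers 59.0, 23.8 and 51.9, and mouse livers 5.24 and 16.9. All naked livers were above all others, and both mouse livers below. Bile duct markers were also highest in naked and lowest in mouse livers. They were apart in Damaraland (73.5 to 439 scaled reads) and guinea pig livers (926 to 2272), where Ak1 overlapped. The part of bile duct cells in the Ak1 result was not tested. Naked minus mouse was called (1.72, limma adjusted p 1.94e-05). The mouse mean of 5.26 was less than 1 above the value of 0 reads, so Ak1 passed the filter through the other species. Naked minus Damaraland (0.81) and naked minus guinea pig (0.79) stayed under the size threshold, with limma adjusted p 0.0019 and 0.0058. The voom test on recovered reads called both, at 1.26 and 1.22. Damaraland minus mouse was 0.91 (limma adjusted p 0.0045) and guinea pig minus mouse 0.92 (limma adjusted p 0.0082); they were called without mouse replicate 2, at 1.17 and 1.19, without Damaraland replicate 5 (1.02) and without guinea pig replicate 2 (1.14) respectively, and by voom.

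Among the AMP deaminases, Ampd1 (ENSMUSG00000070385) was detected in naked mole-rat hearts at 111, 101 and 27 reads, the last in the shallowest library. Damaraland hearts had 1 to 12 reads, guinea pig hearts 5, 3 and 1, and mouse hearts 0 in all 3. In scaled reads the naked hearts had 104, 72.5 and 111, and no other heart exceeded 11.7. Their mean was 13.1-fold that of Damaraland hearts and 40.9-fold that of guinea pig hearts. Against the mouse it was at least 116-fold higher, taking 3 counts over the mouse group as the limit of detection (0.822 scaled reads).

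Ampd1 passed no filter on low values. In a fit of all genes with any read, naked minus Damaraland was 1.38, naked minus guinea pig 1.62 and naked minus mouse 1.93. The mouse hearts were all at the value of 0 reads (SD 0), which lowers the shared estimate of the spread, so no p-value is given. Summed skeletal muscle markers (8 of 8: Acta1, Myh1, Myh2, Myh4, Mylpf, Myl1, Tnnt3, Atp2a1) were 8998 to 11612 scaled reads in naked hearts, 2333 to 22314 in Damaraland, 1737 to 3677 in guinea pig and 4513 to 11459 in mouse hearts. Their part in the Ampd1 result was not tested. In liver Ampd1 had at most 5 reads per library and 0 in both mouse livers.

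Ampd2 (ENSMUSG00000027889) was higher in mole-rat hearts. Naked mole-rat hearts had 340, 527 and 656 scaled reads and Damaraland hearts 261 to 565 with a median of 307. Guinea pig hearts had 164, 187 and 162, and mouse hearts 55, 60.2 and 65.7. Every mole-rat heart was above every outgroup heart, the mole-rats overlapped, and the mouse was below the guinea pig.

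The average contrast of Ampd2 was 1.42 (SE 0.15; limma adjusted p 4.6e-07). Called pairs were naked minus mouse (2.09, limma adjusted p 5.85e-07), Damaraland minus mouse (1.64, limma adjusted p 2.39e-06) and naked minus guinea pig (1.19, limma adjusted p 0.000261; 0.98 with sample weights). Damaraland minus guinea pig was 0.75 (95% interval 0.31 to 1.18), and naked minus Damaraland 0.45 (0.02 to 0.88, limma adjusted p 0.0666). Hepatocyte markers (7 of 7) had the same order of species in heart, with 12818 to 35799 summed scaled reads in naked, 2170 to 6145 in Damaraland, 512 to 2410 in guinea pig and 420 to 1468 in mouse hearts; their part in the Ampd2 result was not tested. In liver no pair was called for Ampd2: its scaled reads spanned 227 to 803 in naked, 491 to 743 in Damaraland, 274 to 673 in guinea pig and 462 to 556 in mouse livers, and every species overlapped every other.

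Ampd3 (ENSMUSG00000005686) differed in liver. Damaraland livers had 57.2 to 127 scaled reads (median 104), naked mole-rat livers 27.6, 55.2, 23.5 and 27.4, mouse livers 21.0 and 15.3, and guinea pig livers 7.76, 7.34 and 3.01. No species overlapped another, and the guinea pig values rested on 10, 8 and 4 reads. The guinea pig mean of 5.03 was less than 1 above the value of 0 reads, so Ampd3 passed the filter through the other species.

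Damaraland minus guinea pig was 1.92 for Ampd3 (limma adjusted p 2.34e-07) and Damaraland minus mouse 1.39 (limma adjusted p 5.12e-05). Averaged mole-rats exceeded averaged outgroups by 1.16 (SE 0.16; limma adjusted p 4.47e-06), or by an uncalled 0.95 with quantile normalisation. Naked minus Damaraland was -0.9993 (limma adjusted p 0.000135), just under the size threshold, and naked minus guinea pig was 0.92 (limma adjusted p 0.000947). Voom on recovered reads called both, at -1.62 and 2.37; the first was also called without naked replicate 2 (-1.15) or Damaraland replicate 3 (-1.13), and the second with sample weights (1.08). Leukocyte markers (4 of 5) were highest in guinea pig livers, at 2915 to 4479 scaled reads, and 898 to 2104 in mole-rat livers; adipocyte markers (4 of 4) were 657 to 3989 in Damaraland and at most 104 in the other livers. Their part in the Ampd3 result was not tested. In heart Ampd3 gave no call, with differences up to -0.74 for guinea pig minus mouse (95% interval -1.12 to -0.36).

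Between the mole-rats themselves, 5 of 9 members were called in heart, where 29.4% of genes were: Ckb was higher in the naked mole-rat (14.2% of genes were called higher), and Ckm, Slc6a8, Gamt and Ak1 were lower (15.2% called lower). In liver 1 of 9 was called, Gatm, against a background of 34.2%. Naked mole-rat and guinea pig differed in 4 members in heart (background 33%) and 2 in liver (37.8%), and naked mole-rat and mouse in 6 (38.2%) and 4 (41.2%). Damaraland mole-rat and guinea pig differed in 2 (29.7%) and 5 (36.2%), and Damaraland mole-rat and mouse in 6 (34.9%) and 4 (39.2%). Guinea pig and mouse differed in 2 members in heart (32.1%) and 3 in liver (37.2%).

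A wider list of 57 genes of adenylate, purine and energy-sensing pathways had 51 in the tables. In heart 45 were tested, of which 6 were called higher and 8 lower in the average contrast of mole-rats with outgroups, with a median of -0.14; of all genes tested, 10.8% were called higher and 12.6% lower. Among the higher were Xdh, the enzyme that makes uric acid (2.30, SE 0.15), Ckmt1, the ubiquitous mitochondrial creatine kinase (2.11, SE 0.16), and Nme7, of the nucleoside diphosphate kinase family (1.86, SE 0.22). The value of Ckmt1 was 9.27 and 8.93 in naked and Damaraland hearts, 8.19 in guinea pig and 5.80 in mouse hearts, so the mitochondrial forms went opposite ways in this contrast. The mouse mean of Ckmt1 was less than 1 above the value of 0 reads, so Ckmt1 passed the filter through the other species. Nme7 was 10.87 in Damaraland hearts and 7.46 to 7.79 in the other species.

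Lower in mole-rat hearts were Prkab2, a regulatory subunit of AMP-activated protein kinase (-2.55, SE 0.11), Nme2 (-2.06, SE 0.27) and Ak4, a mitochondrial adenylate kinase (-1.77, SE 0.14). Prkab2 was 9.79 and 8.60 in the mole-rats, 13.12 in guinea pig and 10.37 in mouse hearts. Limma adjusted p-values of these 6 genes ran from 1.44e-11 for Prkab2 to 4.82e-06 for Nme2.

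In liver 46 of the list were tested, with 8 called higher, 9 lower and a median of 0.18, where 15.1% of all genes were called higher and 13% lower. Higher in mole-rats were Nt5e, which makes adenosine from AMP outside the cell (2.64, SE 0.21), the nucleoside transporter Slc28a1 (2.61, SE 0.17) and the adenylate kinase Ak5 (2.29, SE 0.12). Lower were Uox, the urate oxidase (-6.86, SE 0.15), Camkk2, a kinase that activates AMP-activated protein kinase (-3.50, SE 0.15), and Adk, which returns adenosine to AMP (-2.13, SE 0.10). Uox was 7.23 and 5.04 in naked and Damaraland livers, and 11.36 and 14.62 in guinea pig and mouse livers. Ak5 was 8.08 in naked and 5.74 in Damaraland livers, against 4.38 and 4.85 in guinea pig and mouse livers. The outgroup means of Ak5 lay close to the liver value for no reads (4.2893) and below the limit of the filter on low values. Ak5 thus passed that filter through the mole-rats. The Damaraland mean of Uox was also below that limit, so Uox passed through the other species. With voom on recovered reads the average contrasts of Slc28a1 and Ak5 were larger, at 7.09 and 5.71. Limma adjusted p-values of the 6 named genes ran from 1.33e-15 for Uox to 6.56e-09 for Nt5e.

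The genes most like Ckm over the 14 heart libraries were Calm3 (Pearson r 0.98), Maea (0.98) and Prps1 (0.98), and those most like Ckb were Golga7, mt-Nd1 and Pfdn1, each at 0.98. Over the 14 liver libraries Gatm was most like Slc9a7, BC052040 and Reep1, each at 0.98, and Gamt most like Rps20 (0.89), Washc5 (0.89) and Plg (0.88). These correlations describe 4 species clusters that share libraries, so they carry no p-value.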

How the data were processed

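Heart and liver RNA of 4 rodent species was compared from 28 libraries. The deposited values are variance-stabilised expression on a log2-like scale, made by the authors separately for each tissue; the submitters' processing notes name cutadapt, Salmon, DESeq2 and the build GRCm38. How genes were assigned across species is not given in the sources used here. The 26 columns belonging to other series were not used. Inverting the transform gave whole reads for 100% of values (tolerance 0.01 reads); scaled reads are these divided by size factors. Symbols were matched for 13921 of 13928 rows.

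Tests ran in R 4.3.3 with limma 3.58.1 over each whole table of deposited values, with 1 coefficient per species, a variance trend and Benjamini-Hochberg adjustment over all genes tested in a contrast. Genes with a mean under the value of 0 reads plus 1 were left out, keeping 10667 in heart and 10887 in liver. Species were compared within a tissue only, and libraries of a species are different animals. Intervals of 95% are those of the limma fit and are not adjusted. Alternatives were the size threshold, treat, filters, centring, quantile normalisation, variance settings, sample weights, a replicate block, voom on the recovered reads and leaving out each library. The steps were run on simulated data with changes planted only in well-expressed genes, so that run does not cover the rare members.

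The members and lists were chosen with earlier results of these data known. Named genes are all members, the 3 largest called average contrasts in each direction from the pathway list, and the 3 genes most correlated with Ckm, Ckb, Gatm and Gamt.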

Additional observations from a re-analysis of the deposited data

Results flagged for a closer look

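Of 30 groups of 4 or 5 libraries examined, 2 held a library far from the others, and chance alone sets about 1 in 20 such groups apart. Damaraland heart replicate 5 had a Slc6a8 value of 9.92, with the other 4 hearts at 10.4 to 10.5; it held 569 reads, against 1336 to 2027. Naked mole-rat liver replicate 2 had an Ampd3 value of 6.40, with the other 3 livers at 5.73 to 5.84; the reads were 36 and 25 to 34.

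Over the 10 members and 6 species pairs, 9 gene-by-pair combinations had hearts and livers apart in opposite directions. In these, every heart library of a species lay on one side of the other species and every liver library on the opposite side. No share over all genes was counted, so whether 9 is many cannot be told. The difference between tissues was not tested, since the tables were transformed separately. For Ckmt2, naked minus guinea pig was -0.74 in heart and 0.61 in liver, and Damaraland minus guinea pig -0.71 and 1.09. For Gatm, Damaraland minus guinea pig was 0.54 and -6.07, and guinea pig minus mouse -0.70 and 6.64. Ak1 gave -1.60 and 0.81 for naked minus Damaraland, -1.55 and 1.72 for naked minus mouse, and -1.68 and 0.92 for guinea pig minus mouse. Ampd3 gave 0.41 and -1.0 for naked minus Damaraland, and -0.54 and 1.39 for Damaraland minus mouse. Pairs of the same gene share libraries, and some of these differences were not called in 1 or both tissues.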

How the results depend on the processing

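Across 93 member contrasts, of which 51 were called, no direction changed without a filter, with centring, another variance model, the replicate block or voom. A filter on every species mean kept 72 of these contrasts, with no change of direction. Without a size threshold, member calls rose in heart to 40 over the species pairs and 2 in all 4 mole-rat with outgroup contrasts, and in liver to 30 over the pairs, 7 in the average contrast and 5 between mole-rats; over all genes the pair calls rose to 40155 from 21051 in heart and to 41950 from 24588 in liver. Treat, whose null is a difference no larger than 1, left 13, 1 and 2 calls in heart (pairs, average contrast, between mole-rats) and 12 over the pairs in liver, beside 10266 of 64002 over all genes in heart and 13383 of 65322 in liver. Requiring every species mean to be 1 above the value of 0 reads left 11, 1 and 0 in liver (pairs, average contrast, all 4 contrasts). Ckb, Ckmt2, Ak1 and Ampd3 drop out there, and over all genes the pair calls fell to 18744 from 24588. Fewer members and fewer genes were tested there, so a lower count is not by itself a lower share. Voom called 28 over the pairs in heart and 27 in liver. Over all genes its pair calls rose to 28666 from 21051 in heart and to 29570 from 24588 in liver. In liver voom also called 5 in the average contrast and 5 between mole-rats. For voom and the other settings above, calls over all genes were counted for the pairs only. The other member counts there have no share over all genes beside them.

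Small differences changed sign: the Ckm heart average contrast to 0.28 with quantile normalisation, and Ckmt2 naked minus Damaraland in heart to 0.15 with quantile normalisation and 0.05 with sample weights; the cause was not tested. Leaving out 1 library at a time, that Ckmt2 difference ran from -0.21 to 0.24, Ak1 in heart from -0.04 to 0.15 for Damaraland minus mouse and from -0.02 to 0.39 for naked minus guinea pig. Counts then ran from 24 to 27 (pairs), 3 to 4 (average), 4 to 5 (between mole-rats) and 0 to 0 (all 4) in heart, and 17 to 20, 3 to 4, 1 to 2 and 1 to 1 in liver. The 2 in liver came without naked replicate 2 or Damaraland replicate 3, which brought Ampd3 to -1.15 and -1.13. Without either mouse liver, the remaining one is assumed to vary like the other groups. No shares over all genes are given for these ranges of counts.

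Replicate numbers do not pair the animals, since same-numbered libraries of different species are different animals. With the species mean of each gene subtracted, these libraries correlated at -0.26 to 0.30 in heart (2 of 18 pairs over 0.1) and -0.23 to 0.15 in liver (5 of 16). Differently numbered libraries were not correlated for comparison, so these values alone cannot show whether equal numbers share anything. With a replicate block the counts were 26, 3, 5 and 0 in heart and 19, 3, 1 and 1 in liver. Pair calls over all genes were then 21263 in heart and 24700 in liver, and no share was counted for the other counts. Depth limits Ckb, Ampd1 and Ampd3 in liver and Ampd1 in heart, where some groups hold at most 12 reads per library.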
